A study of Rattus norvegicus with 69 samples.

Results

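The 39 genes described here drive or accompany cell division, and they were read in the liver mRNA of 69 Wistar rats. They were taken by name, as the genes of the count table whose symbol was on a list, and the table of 38513 genes held all 39. By textbook role they were divided into 2 genes of the cyclin D arm of G1, 17 genes of the G1/S transition and DNA synthesis (S phase) and 20 genes of mitosis. Of the 39, 38 had enough reads to be tested, and Bub1b, a spindle checkpoint kinase gene, had between 0 and 13 reads per library and was not.

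A cell that leaves rest makes cyclin D1, which binds CDK4 and releases E2F factors from the retinoblastoma protein. E2F factors then switch on genes for origin licensing, the MCM helicase and nucleotide supply, while cyclin B with CDK1, the Aurora and Polo kinases and the spindle motors are made later, for mitosis. The adult liver is mostly at rest, and its hepatocytes and resident non-parenchymal cells enter the cycle when tissue is lost or injured. In bulk liver RNA, fewer dividing cells and less mRNA per dividing cell cannot be told apart.

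Obesity was induced by a high-fat diet in adult male animals, which then received Roux-en-Y gastric bypass (RYGB, labelled Bypass, n = 14), a sham operation (sham, n = 12), liraglutide, a GLP-1 receptor agonist, combined with the gut peptide PYY3-36 (n = 11, liraglutide+PYY3-36), either agent alone (n = 5 each) or saline (n = 8). All were fasted overnight before the liver was taken. Libraries labelled BWM (n = 8) and Lean (n = 6) are not described in the study's text, and their diet and treatment are not given in the sources used here. The labels name a batch A and a batch B without saying what the batches were. Batch A held 11 RYGB, 7 sham, 6 liraglutide+PYY3-36 and 3 saline libraries and all BWM and Lean libraries, and batch B held the other 3, 5, 5 and 5 and both single drug groups. According to the methods 6 liraglutide+PYY3-36 and 3 saline animals had a longer feeding period, and the labels do not say which. Batch A held the same numbers of libraries from these groups, so feeding length may coincide with batch in them, which was not tested. Total counts ranged from 9110656 to 27558920 (median 21027055), and the 3 RYGB libraries of batch B were among the 4 shallowest at 9110656 to 13941768. Albumin mRNA, the main product of hepatocytes, was present in every library at 39470 CPM or more. On the first principal component of all genes (36% of the variance), 6 libraries of batch B scored 112 to 158.9 (sham replicate 12, PYY3-36 replicate 5, liraglutide replicate 4 and liraglutide+PYY3-36 replicates 8, 9 and 11) and the others 80.03 or less, and these 6 are called outlying here.

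The promoters of the members differed by class in short motifs, and those of 3 mitotic and 2 S phase genes to which the results return are shown, each running from 250 bases before to 50 after the annotated start. Sequences are from RefSeq on GRCr8, a later build than the Rnor_6.0 of the counts. A promoter was found for 30 of the 39 members, and none was at hand for Ccnd1, Rrm2, Ube2c and 6 others. Capitals mark matches on either strand to the CHR, searched as TTTGAA or TTCGAA and known as a binding element of the DREAM complex, to the E2F motif, searched as TTTCCCGC, TTTGGCGC or TTTCGCGC, and to the CCAAT box, searched as CCAAT. Overlapping matches run together.
Mki67 (chr1:199952544-199952843, minus strand): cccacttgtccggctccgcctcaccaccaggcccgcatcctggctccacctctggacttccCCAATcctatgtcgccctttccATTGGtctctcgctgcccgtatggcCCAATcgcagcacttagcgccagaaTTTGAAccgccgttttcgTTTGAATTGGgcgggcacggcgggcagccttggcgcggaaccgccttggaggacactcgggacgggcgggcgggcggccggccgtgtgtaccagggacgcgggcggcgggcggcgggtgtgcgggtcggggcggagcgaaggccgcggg
Cdk1 (chr20:19265043-19265342, plus strand): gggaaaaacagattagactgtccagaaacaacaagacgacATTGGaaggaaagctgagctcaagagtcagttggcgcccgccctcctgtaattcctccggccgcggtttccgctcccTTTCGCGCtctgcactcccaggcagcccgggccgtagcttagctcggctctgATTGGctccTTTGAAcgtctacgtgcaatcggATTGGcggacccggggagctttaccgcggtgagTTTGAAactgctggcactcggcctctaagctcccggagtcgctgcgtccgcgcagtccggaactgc
Top2a (chr10:84473044-84473343, minus strand): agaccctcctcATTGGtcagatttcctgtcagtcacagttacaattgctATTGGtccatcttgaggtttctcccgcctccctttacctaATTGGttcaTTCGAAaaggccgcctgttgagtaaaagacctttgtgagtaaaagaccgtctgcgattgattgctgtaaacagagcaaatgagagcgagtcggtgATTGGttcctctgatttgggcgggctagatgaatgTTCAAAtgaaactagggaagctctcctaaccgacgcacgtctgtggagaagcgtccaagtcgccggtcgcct
Mcm5 (chr19:13488563-13488862, plus strand): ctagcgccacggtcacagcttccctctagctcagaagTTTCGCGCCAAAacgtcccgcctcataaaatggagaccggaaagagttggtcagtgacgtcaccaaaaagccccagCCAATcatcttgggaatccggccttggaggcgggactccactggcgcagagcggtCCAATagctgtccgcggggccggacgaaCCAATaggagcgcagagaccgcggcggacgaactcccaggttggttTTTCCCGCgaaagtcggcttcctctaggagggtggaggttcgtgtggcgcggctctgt
Mcm6 (chr13:42404303-42404602, minus strand): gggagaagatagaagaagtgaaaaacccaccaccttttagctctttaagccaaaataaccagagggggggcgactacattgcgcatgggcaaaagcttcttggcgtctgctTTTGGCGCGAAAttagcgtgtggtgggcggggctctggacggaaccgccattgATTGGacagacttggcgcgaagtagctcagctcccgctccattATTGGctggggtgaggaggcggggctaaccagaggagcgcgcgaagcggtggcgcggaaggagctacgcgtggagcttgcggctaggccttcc
A CHR match was found in 11 of 17 mitotic promoters (64.7%), in 3 of 12 S phase promoters (25.0%) and in 19.7% of all 33469 promoters of this length. An E2F match was found in 7 of 12 S phase promoters (58.3%) but in 1 of 17 mitotic promoters (5.88%), that of Cdk1, and in 1.72% of all promoters. CCAAT matches were in 82.4% of mitotic, 58.3% of S phase and 37.5% of all promoters. Among promoters not printed, those of the S phase genes Ccne1 and Pcna, to which the results also return, hold neither a CHR nor an E2F match. The promoter of Mki67 holds 2 CHR matches and no E2F match, whereas those of Mcm5 and Mcm6 hold 3 and 2 E2F matches and no CHR match. In both Mcm5 and Mcm6, E2F matches on opposite strands overlap within the same stretch, so matches are not separate sites. These matches describe letters in a window and were not tested for binding.

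Scaled to exon length as well as to library size (RPKM), the G1 genes were the most abundant members and the mitotic genes the least. Cdk4, the kinase partner of cyclin D, had a median of 24.2 RPKM over the 69 libraries (lowest 5.30, highest 31.1). Ccnd1, which encodes cyclin D1, had a median of 12.2 RPKM with a wide range from 1.14 to 22.4. Among S phase genes Pcna, the sliding clamp of DNA polymerase, led with 11.2 RPKM, followed by Cdk2 (6.05), Rrm1 (3.53), the large subunit of ribonucleotide reductase, and Mcm7 (3.32). The most abundant mitotic gene was Birc5, which encodes survivin, at 1.13 RPKM. Mki67, which encodes the proliferation marker Ki-67, lay at 0.143 RPKM, Top2a, the mitotic topoisomerase, at 0.0609 RPKM and Cenpf, a kinetochore protein, at 0.0209 RPKM. In reads, Mki67 had 7 to 90 per library and Cdk1 0 to 31, so that counting error is large for single mitotic genes.

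**Figure D1:**
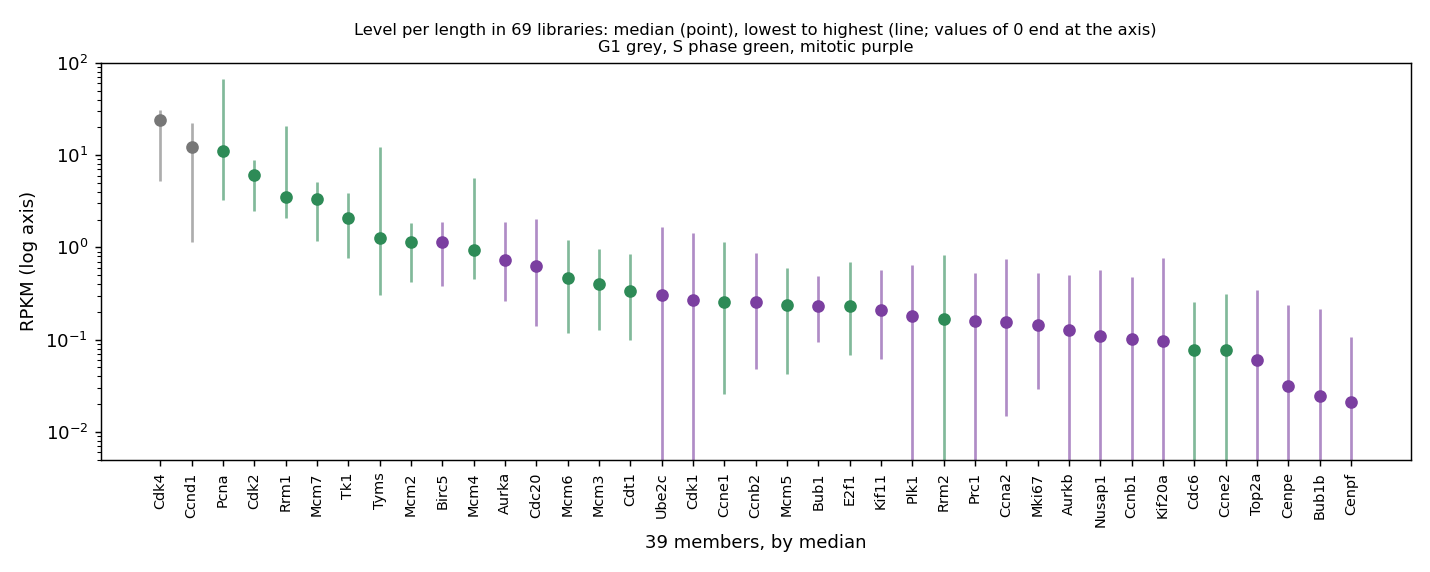
Level of each of the 39 members in 69 libraries on a logarithmic RPKM axis, ordered by median, with points for medians and lines from the lowest to the highest library (values of 0 end at the axis). The G1 genes Cdk4 and Ccnd1 head the order at 24.2 and 12.2 RPKM, and most mitotic genes lie below 1 RPKM.

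The mitotic genes were summed in each library in CPM, the counts scaled to library size after TMM normalisation. The sum was lowest in BWM, at 6.003, 8.13 and 9.20 CPM (lowest, median and highest of 8), and every BWM library lay below every Lean library (10.4, 14.8 and 22.8, n = 6). RYGB ranged from 7.36 over a median of 10.03 to 21.8, and sham from 8.43 over 15.7 to 23.7. These medians pool both batches in unlike shares. In batch A, which holds all BWM libraries, the median was 8.84 in RYGB, 9.57 in sham, 9.82 in liraglutide+PYY3-36 and 14.6 in saline. In batch B it was 12.6, 22.1, 13.5 and 16.8 in the same order. Liraglutide+PYY3-36 (7.18, 12.3 and 26.5) and saline (9.67, 15.7 and 31.1) overlapped over nearly their whole range. In PYY3-36 the sum ran from 11.8 to 26.4 and in liraglutide from 12.8 to 21.97. These sums rest on 116 to 578 reads per library. The highest RYGB library, replicate 4 at 21.8 CPM and 578 reads, stood well above the next batch A library of that group, replicate 9 at 13.3.

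The S phase sum was several times higher and nearly level between groups, with medians from 65.4 in RYGB to 77.4 in liraglutide. Its highest values were in sham replicate 12 (199.9 CPM), PYY3-36 replicate 5 (183.0), liraglutide+PYY3-36 replicates 8 (163) and 11 (135.5) and liraglutide replicate 4 (133.8). All 5 belong to the 6 outlying libraries. Pcna, Rrm1, Cdk2 and Mcm7 made up most of the sum. Without these 4 genes the medians were 18.4 in RYGB, 23.8 in sham, 18.5 in BWM and 23.7 in Lean. In batch A alone they were 18.1 in RYGB and 21.9 in sham.

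**Figure D2:**
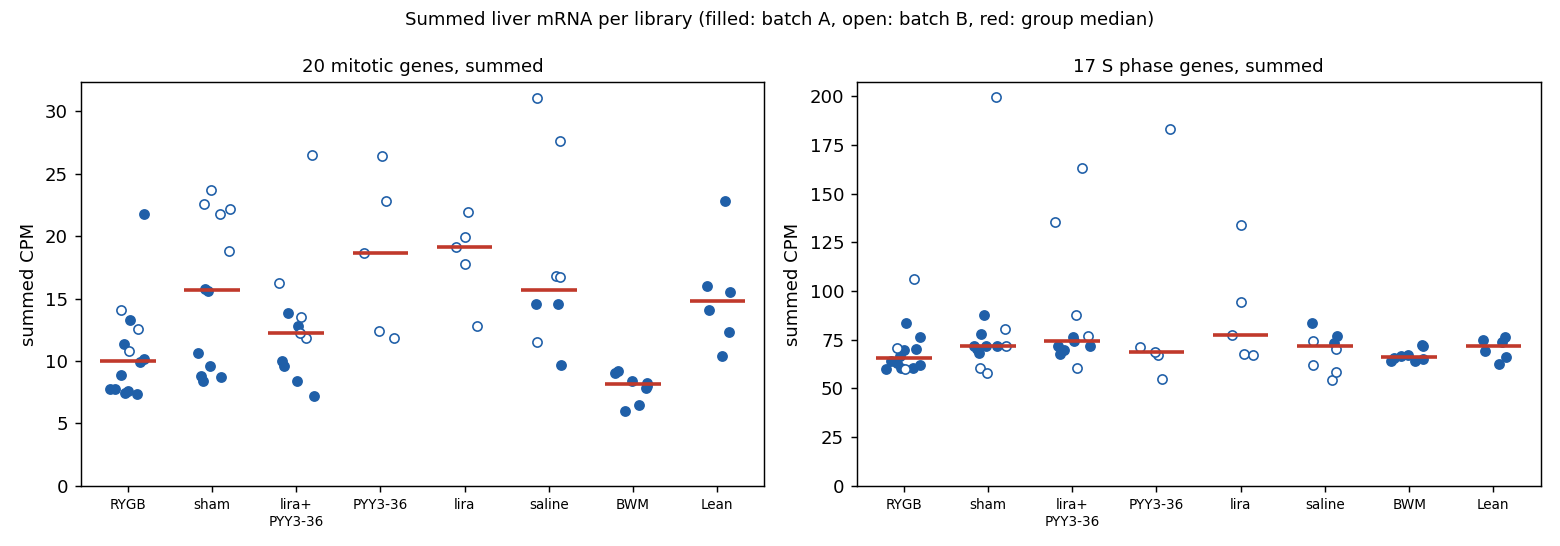
Summed CPM of the 20 mitotic genes (left) and the 17 S phase genes (right) in each library by group, with filled points for batch A, open points for batch B and red lines for group medians. All 8 BWM libraries lie below all 6 Lean libraries in the mitotic sum, and the 5 highest S phase sums, at 133.8 to 199.9 CPM, are all from outlying libraries.

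Mki67 had the lowest p of all members in the test over the 8 groups. In RYGB its lowest, median and highest values were 0.452, 0.930 and 2.98 CPM (n = 14), and in sham 0.730, 1.89 and 4.60 (n = 12). In BWM they were 0.298, 0.523 and 1.09 (n = 8), and in Lean 1.46, 1.85 and 4.23 (n = 6). BWM and Lean did not overlap, while RYGB and sham overlapped widely. Liraglutide+PYY3-36 had 0.520, 1.41 and 4.15 CPM (n = 11) and saline 1.26, 2.51 and 5.40 (n = 8). The single drug libraries, all of batch B, were at 3.68, 1.41, 2.53, 3.37 and 2.32 CPM with PYY3-36 and at 4.71, 2.55, 2.33, 2.89 and 2.78 CPM with liraglutide. The 5 saline libraries of the same batch ran from 1.44 to 5.40 CPM, and of the single drug libraries PYY3-36 replicate 2 lay just under that range and the others within it. Mki67 (gene ID 291234, Rnor_6.0 chromosome 1, 207993895 to 208020454, minus strand) was the 1 member of 38 called in the edgeR test of any difference among the 8 groups (adjusted p = 0.00390), where 4.31% of all 16676 genes tested were called. At an unadjusted p under 0.05 10 members passed, and 13.9% of all genes. The next members were Ccne1, cyclin E1 (adjusted p = 0.0575), and Cdk1 (adjusted p = 0.0631).

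**Figure D3:**
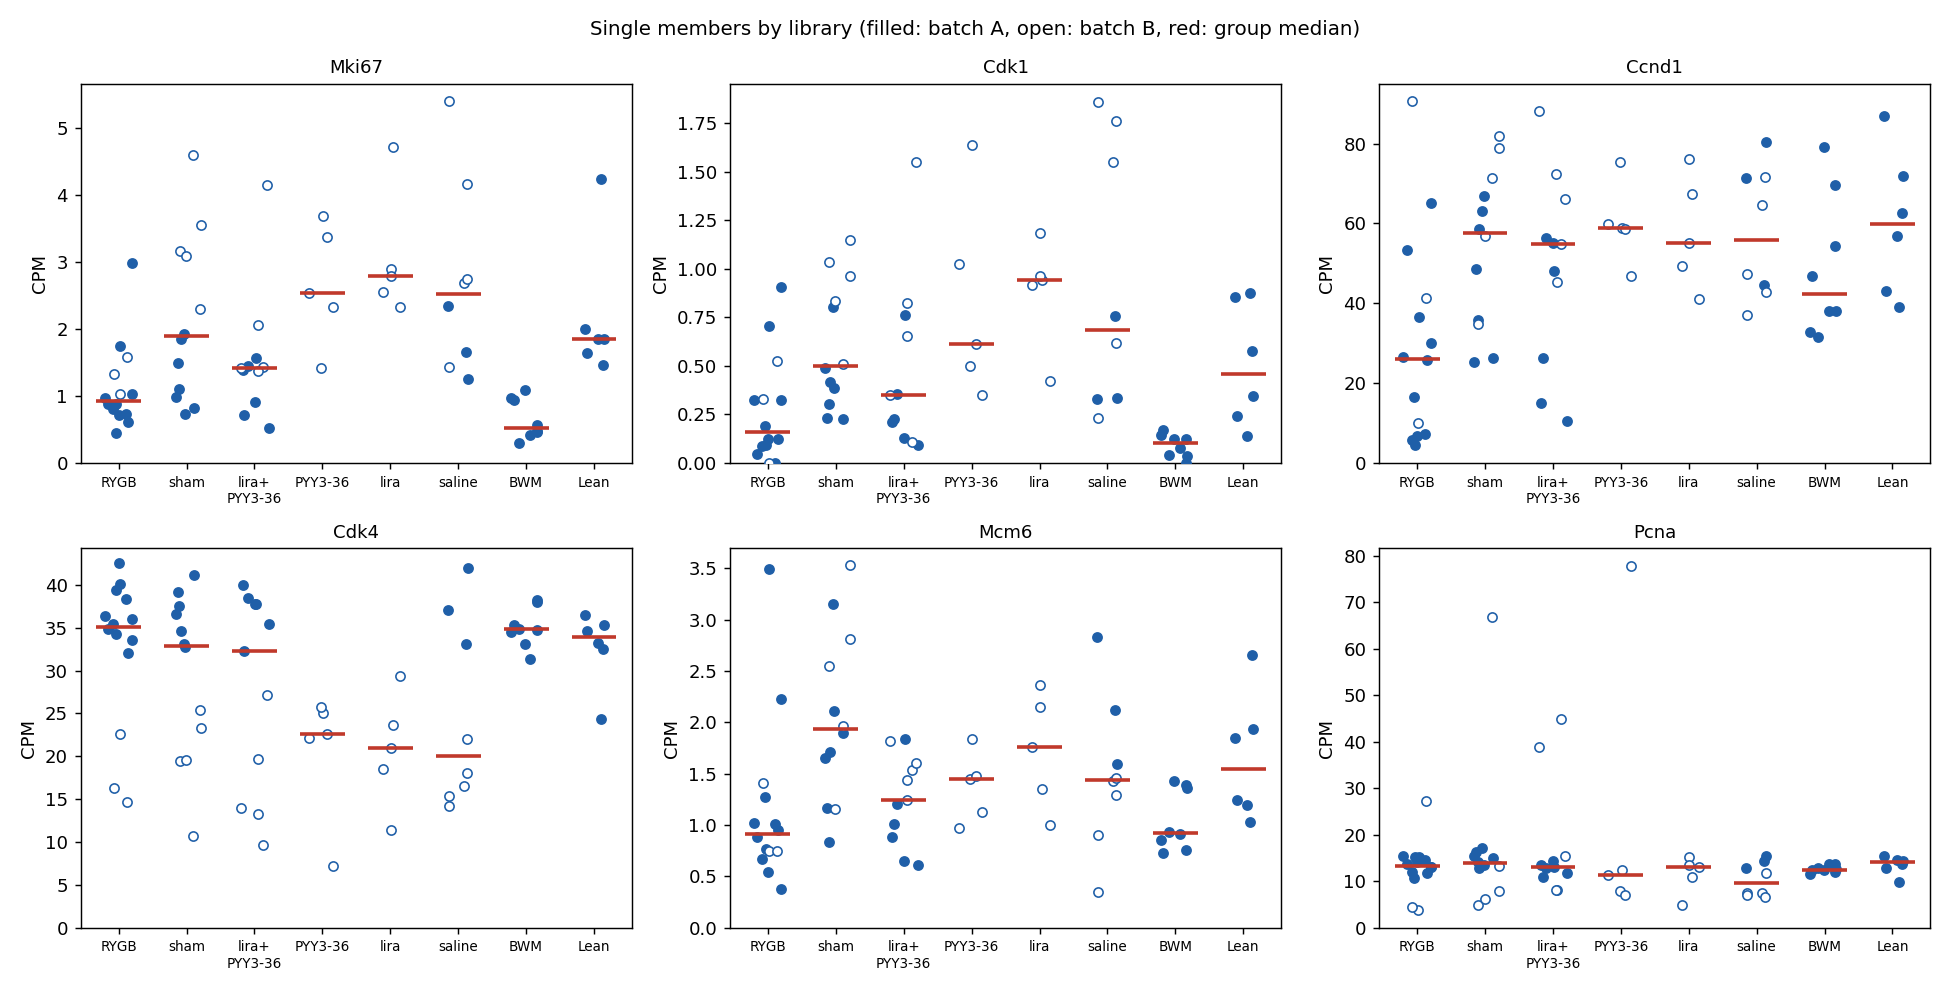
CPM of Mki67, Cdk1, Ccnd1, Cdk4, Mcm6 and Pcna in every library by group, with filled points for batch A, open points for batch B and red lines for group medians. Mki67 in BWM (0.298 to 1.09 CPM) does not reach the Lean range (1.46 to 4.23), Ccnd1 spreads from 4.61 to 90.7 CPM in RYGB, and Cdk4 separates by batch in each of the 4 groups found in both batches.

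Among the other mitotic genes, Cdk1 overlapped widely outside BWM. RYGB was at 0, 0.159 and 0.905 CPM, liraglutide+PYY3-36 at 0.0945, 0.353 and 1.55 and saline at 0.230, 0.685 and 1.86, with PYY3-36 at 1.64, 0.497, 1.02, 0.613 and 0.351 and liraglutide at 0.943, 0.916, 0.423, 0.964 and 1.18. Ube2c, an enzyme that works with the anaphase-promoting complex, was at 0, 0.09575 and 0.143 CPM in BWM, 0.139, 0.192 and 0.773 in Lean, 0.0809, 0.275 and 0.664 in RYGB and 0.0381, 0.344 and 1.28 in sham. Its BWM and Lean ranges met only at their ends. Prc1 was at 0.08515, 0.268 and 0.536 CPM in BWM, 0.258, 0.629 and 0.950 in Lean, 0.177, 0.420 and 1.28 in RYGB and 0.267, 0.533 and 1.34 in sham, all of which overlapped. Top2a ranged from 0 to 1.697 CPM in RYGB (median 0.295) and from 0 to 1.02 in sham (median 0.385), and those groups overlapped over most of their range.

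Among the S phase genes, Ccne1 had its highest median in Lean (0.618, 1.53 and 2.11 CPM) and its lowest in PYY3-36 (0.273, 0.166, 0.0539, 0.153 and 0.07025), with saline at 0.0574, 0.229 and 1.07. All Lean libraries were of batch A and all PYY3-36 libraries of batch B, so a difference between Lean and PYY3-36 cannot be told apart from batch. Within saline the Ccne1 median was 0.879 CPM in batch A and 0.117 in batch B (0.0574 to 0.280), the latter below the PYY3-36 median of 0.153. In batch A the medians of RYGB (0.972), sham (0.602), liraglutide+PYY3-36 (0.638) and saline were all below that of Lean. Ccne1 was at 0.0932, 0.904 and 2.41 CPM in RYGB, 0.146, 0.451 and 2.09 in sham and 0.305, 0.424 and 1.04 in BWM, which reached the Lean range only with its upper values. Mcm5, a helicase subunit, was at 0.136, 0.452 and 1.83 CPM in RYGB, 0.420, 1.02 and 1.90 in sham, 0.284, 0.322 and 0.966 in BWM and 0.576, 0.980 and 1.46 in Lean. Among these 4 groups RYGB and BWM had the lower medians, as was the case for Rrm2, at 0, 0.237 and 1.36 CPM in RYGB, 0.0905, 0.606 and 1.61 in sham, 0.0473, 0.149 and 0.421 in BWM and 0.369, 0.889 and 1.29 in Lean. Pcna did not follow them, with medians of 13.4 CPM in RYGB, 13.9 in sham, 12.5 in BWM and 14.04 in Lean. It was tight in BWM (11.5 to 13.7 CPM) and wide in sham (4.92 to 66.8), where the highest value came from the outlying replicate 12.

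Between BWM and Lean, both wholly within batch A, all 19 tested mitotic genes had negative log2 fold changes, with a median of -1.36, against -0.01 for all genes. The mitotic median was -1.07 without Lean replicate 1, the library with the highest mitotic sum of its group. In this comparison 2 of 38 members were called, both lower in BWM, where 0.528% of all genes tested were called and 0.408% were called lower. Mki67 was lower by a log2 fold change of -1.72 (SE 0.335, adjusted p = 0.00194, edgeR). Cdk1, the kinase that starts mitosis, was at 0, 0.101 and 0.171 CPM in BWM and at 0.139, 0.460 and 0.876 in Lean. The 2 groups overlapped, the log2 fold change was -2.40 (SE 0.597, adjusted p = 0.0347, edgeR), and the BWM values rest on 0 to 4 reads per library, where a count of 0 still allows up to 3. For Top2a the ranges all but met (0.0856, 0.185 and 0.358 CPM in BWM, 0.361, 0.490 and 1.14 in Lean), and its adjusted p was 0.271 (log2 fold change -1.67, SE 0.578, edgeR). At an unadjusted p under 0.05, 20 members were lower and none was higher, namely 14 mitotic and 6 S phase genes, where 4.21% of all genes were lower at that level. Among those not called were Aurkb, the kinase of the chromosomal passenger complex (-1.97, SE 0.553, adjusted p = 0.0885), Kif20a, a kinesin of cytokinesis (-1.89, SE 0.602, adjusted p = 0.201), and Rrm2, the S phase subunit of ribonucleotide reductase (-1.997, SE 0.548, adjusted p = 0.0769). The S phase median was -0.31, and Cdk2, Mcm7, Tk1 and Ccne2 had positive values. The G1 genes showed log2 fold changes of -0.30 (Ccnd1) and 0.10 (Cdk4).
The call of Mki67 held when each library was left out in turn (log2 fold change -1.84 to -1.41, adjusted p 0.00167 to 0.0429, edgeR), whereas that of Cdk1 was lost without any of 8 of the 14 libraries, namely BWM replicates 2, 4, 5, 6 and 8 and Lean replicates 1, 4 and 6 (adjusted p up to 0.170).

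RYGB and Lean differed in the same 19 mitotic genes by a median of -0.70, all negative, against -0.01 for all genes. Here 2 of 38 members were called lower, where 3.88% of all genes tested were called and 2.28% were called lower. Mki67 had a log2 fold change of -1.12 (SE 0.289, adjusted p = 0.0121, edgeR). Ccnd1 (gene ID 58919, Rnor_6.0 chromosome 1, 218090750 to 218100447, minus strand) was at 4.61, 26.1 and 90.7 CPM in RYGB and at 39.1, 59.7 and 87.0 in Lean. Several RYGB libraries had Ccnd1 far below the Lean range while the highest lay above it, and the log2 fold change was -1.16 (SE 0.353, adjusted p = 0.0438, edgeR). At an unadjusted p under 0.05, 13 members were lower, 8 of them mitotic, where 7.42% of all genes were. Ccna2, cyclin A2, was the nearest to a call (-1.28, SE 0.403, adjusted p = 0.0554, edgeR). Without Lean replicate 1, whose Mki67 was the highest of its group, the Mki67 value was -0.82 and no member was called. The Ccnd1 call was lost without any of 14 of the 20 libraries (RYGB replicates 1, 5, 6, 7, 8, 10, 11 and 12 and each Lean library, adjusted p up to 0.144). Without RYGB replicate 4 the number of members called was 7, and without RYGB replicate 9 it was 4. Whether calls among all genes rose as well in these refits is not given here.

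Between RYGB and sham, the comparison of the operation with its surgical control, 0 of 38 members were called by edgeR (7 at an unadjusted p under 0.05, all lower), where 3.12% of all genes tested were called. DESeq2 called 1 and limma-voom with sample quality weights 6. The share of 3.12% is that of edgeR, and the shares of all genes called by the other 2 tools are not given here. The values leaned to lower levels after RYGB, with 33 of 38 members negative and a median of -0.32, against 50.9% negative and a median of -0.01 among all genes. At the unadjusted level 6.1% of all genes were lower, and the 7 members were the origin licensing gene Cdt1, the helicase genes Mcm2, Mcm3, Mcm5 and Mcm6, Ccnd1 and Mki67. Mcm6 was at 0.373, 0.916 and 3.49 CPM in RYGB and at 0.839, 1.93 and 3.54 in sham. The groups overlapped over most of their range, with a log2 fold change of -0.80 (SE 0.255, adjusted p = 0.0700, edgeR). Mcm6 passed the threshold in DESeq2 (adjusted p = 0.0410) and limma-voom (adjusted p = 0.0108), without the 6 outlying libraries (adjusted p = 0.0480, edgeR), and without RYGB replicate 4 or 9 or sham replicate 6 (adjusted p = 0.0304, 0.00495 and 0.0377). Mcm6 did not pass in batch A alone (-0.57, adjusted p = 0.293, edgeR), in batch B alone (-1.29, adjusted p = 0.313) or in 7 further settings with an adjusted p of 0.0516 to 0.115, nor without any one of the other 23 libraries.
Ccnd1 had a sham range of 25.2 to 82.0 CPM around a median of 57.7. Its log2 fold change was -0.76 (SE 0.294, adjusted p = 0.183, edgeR), and -1.27 in limma-voom, where its adjusted p was 0.00364. Mki67 showed -0.56 (SE 0.251, adjusted p = 0.306, edgeR), and -0.79 (adjusted p = 0.0439) without RYGB replicate 4. Ccne1 had the highest positive value of the members, 0.51 (SE 0.341), which was 0.13 without RYGB replicate 13 and 0.81 without sham replicate 4, and Cdk4 had -0.05 (SE 0.129).
The S phase median of -0.32 was -0.12 without sham replicate 12 and -0.10 without the 6 outlying libraries. The mitotic median of -0.26 was -0.07 in batch A alone and -1.14 in batch B alone, which has 3 RYGB and 5 sham libraries, and it was -0.59 without RYGB replicate 4. In batch A the median of Mki67 was 0.884 CPM in RYGB and 1.11 in sham, and in batch B 1.33 and 3.16. The 3 RYGB libraries of batch B (1.03 to 1.57 CPM) did not reach the 5 sham libraries (2.30 to 4.60), and they were also among the 4 shallowest libraries of the series.

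BWM and sham gave the same direction, but 0 of 38 members were called by edgeR (15 at an unadjusted p under 0.05, all lower), where 0.042% of all genes tested were called. DESeq2 called 1, Cdk1 (adjusted p = 0.0469). The shares of all genes in this paragraph are those of edgeR, and those of DESeq2 and limma-voom are not given here. The unadjusted level held 9 mitotic and 6 S phase genes and 1.52% of all genes. Cdk1 did not overlap between BWM and sham (sham 0.226, 0.5005 and 1.15 CPM) and had a log2 fold change of -2.14 (SE 0.556, adjusted p = 0.208, edgeR). The mitotic median was -0.71 in the full fit and -0.46 in batch A alone, the batch that holds all BWM libraries. RYGB and BWM were compared directly as well, and 0 of 38 members were called by edgeR (5 unadjusted), where 1.27% of all genes tested were called and 7.91% passed unadjusted. DESeq2 called 0 and limma-voom 1. There 17 of 19 mitotic genes had positive values, with a median of 0.55 that was 0.31 without RYGB replicate 4, and Ccnd1 had -0.86 (SE 0.328, adjusted p = 0.297). For Ccnd1, its 1 call, limma-voom gave -1.36 with an adjusted p of 0.00576. In Lean versus sham 0 of 38 members were called by edgeR, DESeq2 or limma-voom, where 0.612% of all genes tested were called by edgeR. There 3 members were higher at an unadjusted p under 0.05, as were 3.5% of all genes, with 18 of 19 mitotic genes positive and a median of 0.40, which was 0.18 without Lean replicate 1. The comparisons of RYGB, BWM and Lean share libraries and are not independent of each other.

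**Figure D4:**
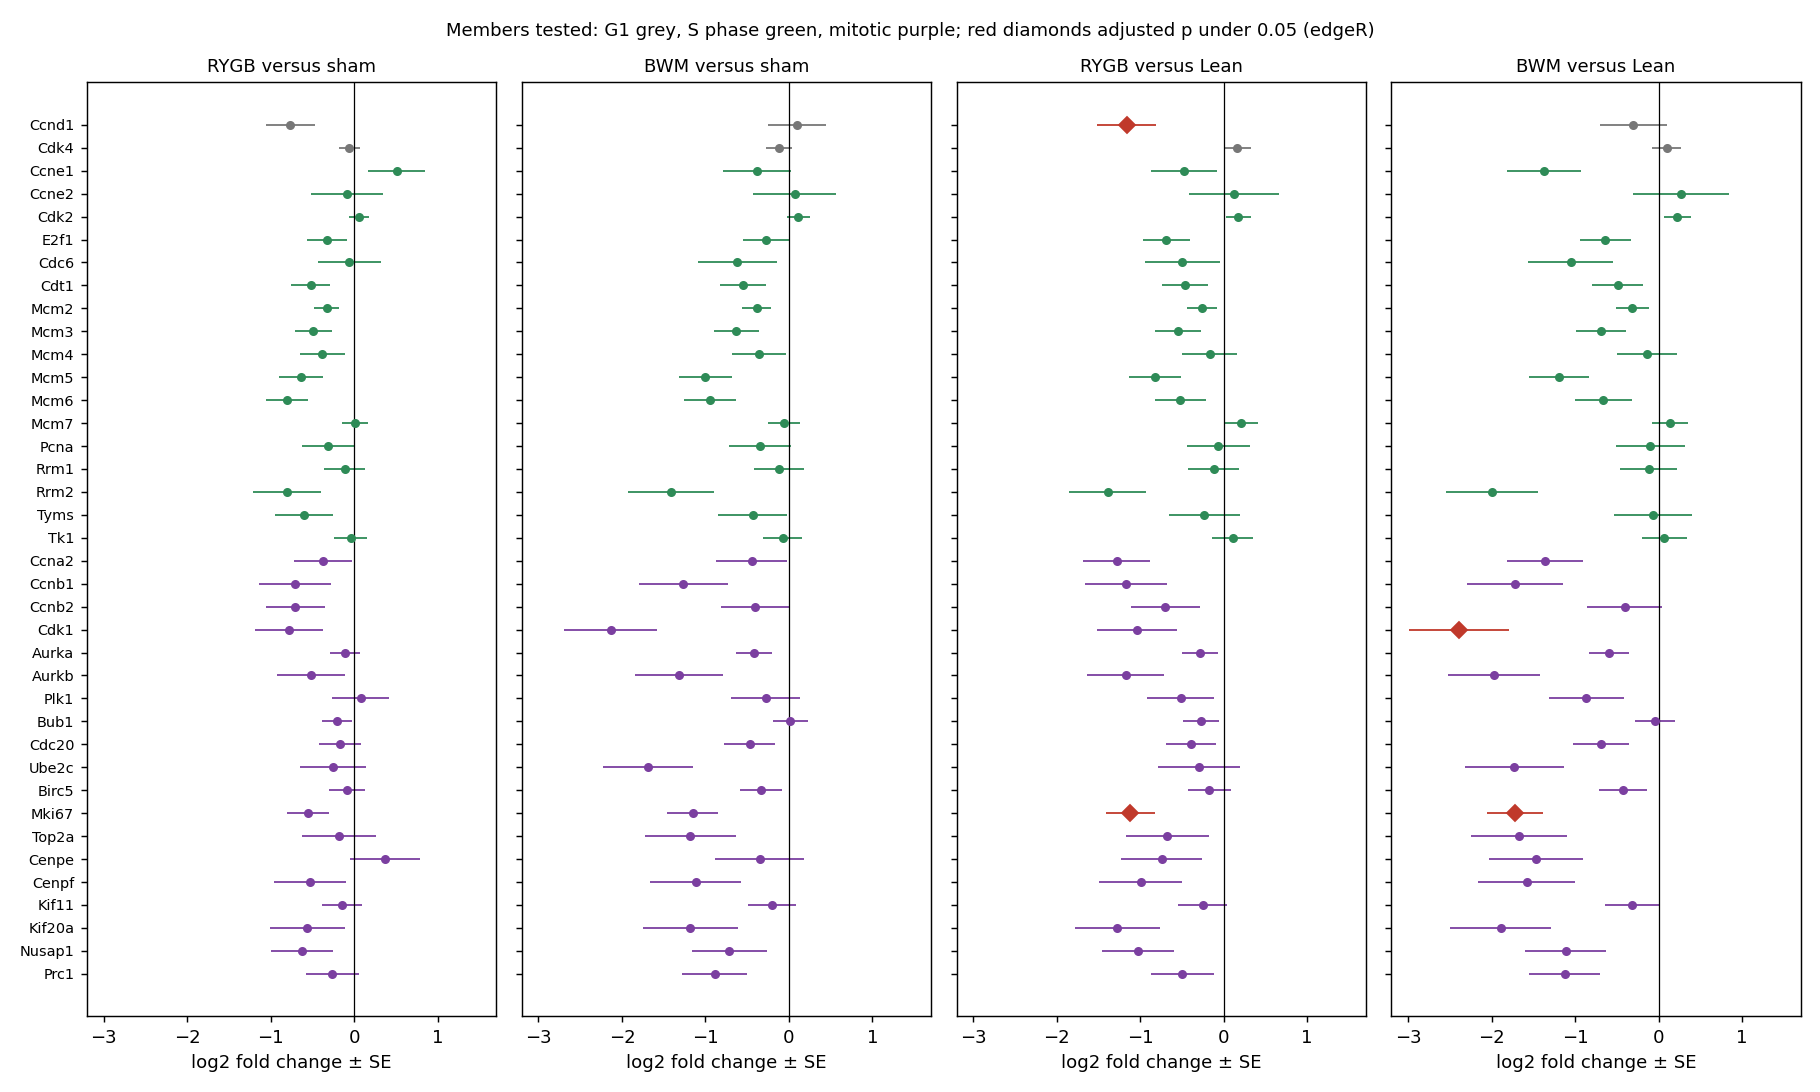
Log2 fold change with SE (edgeR, 69 libraries) of the 38 tested members in 4 comparisons, in grey for G1, green for S phase and purple for mitotic genes, with red diamonds for an adjusted p under 0.05. All 19 mitotic genes lie left of 0 against Lean, and the calls are Mki67 and Ccnd1 for RYGB and Mki67 and Cdk1 for BWM.

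No member was called with any drug treatment, and edgeR, DESeq2 and limma-voom each gave 0 of 38 in each comparison with saline. Shares of all genes given below are those of edgeR. For liraglutide+PYY3-36 0.006% of all genes tested were called, and 6 members passed an unadjusted p under 0.05, as did 10.9% of all genes. Of these 5 were mitotic and lower, where 2.98% of all genes were lower at that level, and Rrm1 was higher (0.60, SE 0.294, adjusted p = 0.454). Prc1, which bundles the microtubules of the central spindle, was at 0, 0.259 and 1.22 CPM with liraglutide+PYY3-36 and at 0.411, 0.731 and 1.64 in saline. The ranges overlapped, and the log2 fold change was -1.03 (SE 0.364, adjusted p = 0.454, edgeR). Mki67 had -0.66 (SE 0.280, adjusted p = 0.454). The mitotic median was -0.32 with 16 of 19 negative (-0.58 without liraglutide+PYY3-36 replicate 10 and -0.13 without saline replicate 7), and the S phase median 0.04 (0.00 among all genes), with -0.21 in batch A and 0.42 in batch B.
Ccnd1 with liraglutide+PYY3-36 was at 10.6, 54.8 and 88.3 CPM against 37.1, 56.0 and 80.3 in saline (-0.25, SE 0.343). PYY3-36 alone (1 member and 4.95% of all genes unadjusted, 0% of all genes tested called) left Ccnd1 at 58.9, 75.4, 59.97, 58.5 and 46.9 CPM, and liraglutide alone (2 members and 6.22% of all genes unadjusted, 0.006% of all genes tested called) at 67.3, 49.3, 41.0, 55.1 and 76.2 CPM. Against the 5 saline libraries of the same batch (37.1 to 71.5 CPM), 1 library of each drug group lay above and the others within the range. The unadjusted result with PYY3-36 was Pcna, at 12.5, 7.88, 11.3, 7.001 and 77.9 CPM, where replicate 5, an outlying library, alone lay above the other 4. The effects of RYGB against sham and of liraglutide+PYY3-36 against saline were also compared, and their difference was called for 0 of 38 members by edgeR, DESeq2 or limma-voom (4 unadjusted by edgeR), where 0.036% of all genes tested were called and 12.3% passed unadjusted. For Mki67 the difference between both effects was 0.10 with an SE of 0.373, and for Ccnd1 -0.51 with an SE of 0.455. Between the 2 control groups, sham and saline, 0 of 38 members were called by edgeR, DESeq2 or limma-voom and 0 passed unadjusted in edgeR, where 0% of all genes tested were called and 2.58% passed unadjusted.

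More members were called between the batches than in any comparison of groups. In the same fit 27 of 38 members were called between batches A and B, where 60.6% of all genes tested were called. Of the 38 members 23 were called lower in batch A, as were 33.7% of all genes tested. Of the mitotic genes 15 were called, all lower in batch A, and their median log2 fold change was -0.94. Ccna2 had the lowest value (-1.82, SE 0.267, adjusted p = 2.47e-08, edgeR), and Mki67 had -0.94 (adjusted p = 3.93e-05). Cdk4 went the other way with 1.04 (SE 0.105, adjusted p = 3.53e-13, edgeR). In the 4 groups found in both batches Cdk4 lay between 32.1 and 42.5 CPM in batch A and between 9.60 and 27.1 in batch B, without overlap. Single drug groups exist in batch B alone and BWM and Lean in batch A alone, so that a comparison between a single drug group and BWM or Lean would rest on this batch term alone.

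**Figure D5:**
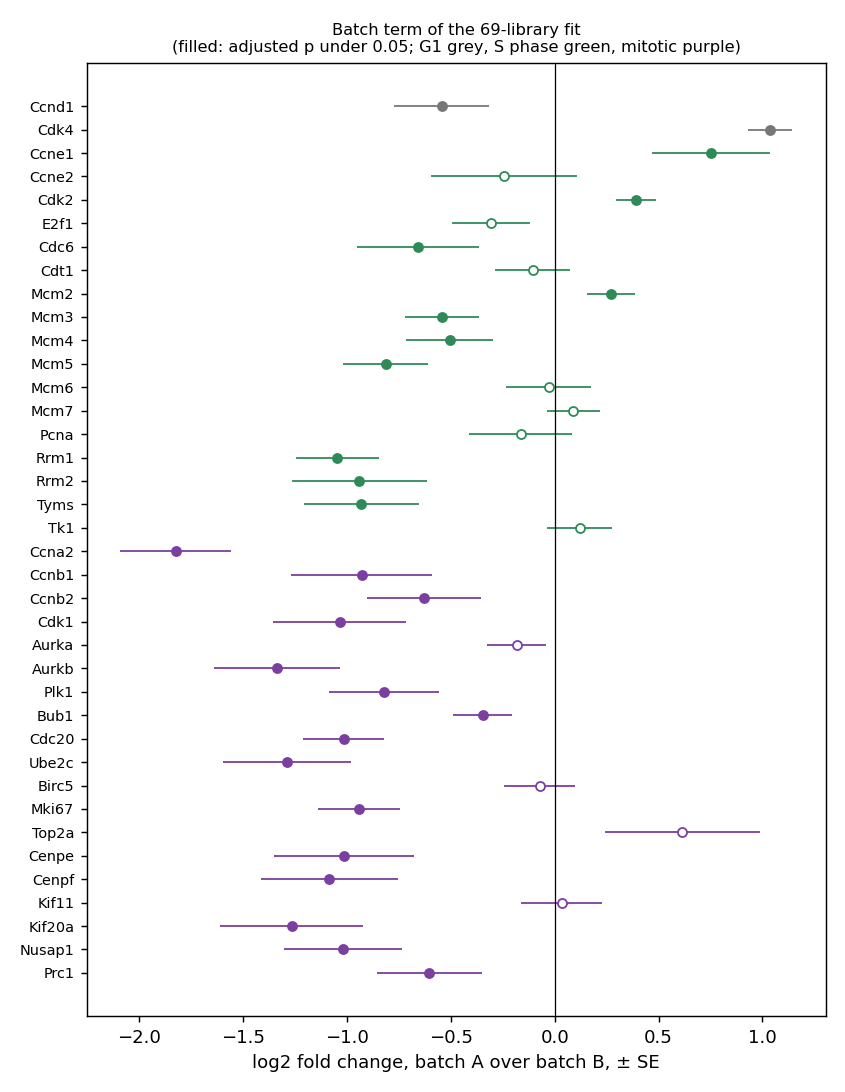
Log2 fold change of batch A over batch B with SE for the 38 tested members in the 69-library edgeR fit, in grey for G1, green for S phase and purple for mitotic genes, filled where the adjusted p was under 0.05. Cdk4 lies furthest right at 1.04, Ccna2 furthest left at -1.82, and 23 of the 27 called members are lower in batch A.

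Mitotic members varied together from library to library once group and batch were taken out of log2 CPM. Over 171 pairs of mitotic genes the median Pearson r was 0.395 across 69 libraries, against 0.158 over 136 pairs of S phase genes and 0.094 between both classes. Mki67 was compared with 6 other members, and Cdk1 (r = 0.664, rho = 0.565, permutation p = 1e-05 for both, the smallest that the resamples can give, adjusted 2e-05 and 3e-05) was the closest of these 6. Cenpf (r = 0.7), Cdc20 (0.694), Ccnb1 (0.683) and Kif20a (0.667) were closer to Mki67 but were not among the members tested. The r of Cdk1 was 0.587 without the 2 libraries furthest from the Mki67 median, 0.685 in batch A (n = 41) and 0.656 in batch B (n = 28). Top2a (r = 0.617, rho = 0.533, permutation p = 1e-05 for both) and Rrm2 (r = 0.587, rho = 0.462, permutation p = 1e-05 and 5e-05) followed among the 6. Pcna did not pass the test (r = 0.0388, rho = -0.0132, permutation p = 0.75 and 0.914), nor did Cdk4 (r = 0.0672, rho = 0.142, permutation p = 0.582 and 0.246). Ccnd1 was in between (r = 0.298, rho = 0.25, permutation p = 0.0126 and 0.0394, adjusted 0.0189 and 0.0591), with 0.445 in batch A and 0.0104 in batch B. The libraries share depth and handling, so these values describe co-variation only.

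Other genes of the same processes were counted from 4 lists. Of 36 tested further mitotic genes 30 were negative in RYGB versus sham (median -0.23) and 1 was called, Spc24, a kinetochore subunit (-0.63, SE 0.180, adjusted p = 0.0321, edgeR), or 2.78% against 3.12% of all genes. In BWM versus Lean 33 of the 36 were negative (median -0.55) and 0 were called (11 unadjusted, all lower). In RYGB versus Lean 33 were negative and 1 was called, Kif22, a chromosome motor (-1.55, SE 0.393, adjusted p = 0.00988, edgeR), or 2.78% against 3.88% of all genes. Of 44 tested further replication genes 0 were called in RYGB versus sham, in BWM versus Lean or in RYGB versus Lean (3, 5 and 7 lower and 0, 1 and 0 higher unadjusted). In RYGB versus BWM 1 of the 44 was called, lower, or 2.27% against 1.27% of all genes. Of 6 CDK inhibitor genes Cdkn1a, which encodes p21, was called lower in RYGB versus sham (medians 3.60 and 14.8 CPM, log2 fold change -2.02, SE 0.498, adjusted p = 0.00916, edgeR), and Cdkn2b, which encodes p15, was called lower in RYGB versus Lean (-1.40, SE 0.296, adjusted p = 0.00144). Of 13 further D cyclin, Rb and E2F genes Rb1 was called higher in RYGB versus Lean (0.64, SE 0.167, adjusted p = 0.0143), and 0 were called in RYGB versus sham.

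Markers of other cell types differed between some of the same groups. Summed blood and erythroid markers (6 of 7 listed were in the table) ranged from 19.1 to 480 CPM in RYGB (median 44.7), 54.7 to 648 in sham (138.6), 33.8 to 217 in BWM (70.1) and 64.3 to 355 in Lean (101.9). All 6 were negative in RYGB and in BWM against both sham and Lean, and Ahsp, the chaperone of alpha haemoglobin, was at 0 in 2 of the 69 libraries. Of 9 tested T and NK cell genes 7 were negative in RYGB versus sham and 8 in BWM versus Lean, with 0 called, and their sum overlapped between groups (17.1 to 54.3 CPM in RYGB, 20.2 to 53.3 in sham, 24.7 to 45.7 in BWM, 21.8 to 45.7 in Lean). All 5 endothelial genes were negative in BWM and in RYGB against Lean with 0 called, and their sum ran from 57.1 to 262 CPM in RYGB, 79.2 to 367 in sham, 70.0 to 136 in BWM and 124 to 185 in Lean. Kupffer cell and macrophage markers went the other way, with 10 of 10 positive and 1 called in RYGB versus sham (227 to 772 CPM in RYGB, 197 to 538 in sham). In RYGB versus Lean, where Mki67 and Ccnd1 were called, markers called by edgeR also included 2 of 5 hepatocyte genes (Cyp2e1 higher, Ttr lower), 2 of 4 bile duct genes (Krt7 higher, Epcam lower) and 1 of 10 Kupffer cell and macrophage genes (Cd5l, higher). The hepatocyte sum ran from 53487 to 260020 CPM in RYGB and 128410 to 167950 in Lean, and the bile duct sum from 10.5 to 24.5 and 12.3 to 20.99. The part of these cells in the values of the members was not tested.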

How the data were processed

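Poly(A)-selected, strand-specific liver libraries of 69 rats were sequenced, 1 library per animal. The authors made the deposited estimated counts per gene by demultiplexing (bcl2fastq 2.20.0.422), trimming (cutadapt 2.5), alignment to Rnor_6.0 with RefSeq genes (STAR 2.7.2b) and counting (featureCounts 1.6.4), dividing a read with several matches between them, so that 15.9% of values were not whole. These counts were not normalized by the authors. They were rounded, filtered with filterByExpr (16676 of 38513 genes kept), scaled by TMM and fitted once over all 69 libraries in edgeR 4.0.16 (R 4.3.3) with a robust quasi-likelihood model of group and batch. P-values were adjusted over all genes tested by the method of Benjamini and Hochberg, with a threshold of 0.05.

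The members and gene lists were chosen with earlier results of these data known. By rule, values are given for members called between groups, for the 4 mitotic and 4 S phase members with the lowest p over the 8 groups, and for Mki67, Top2a, Cdk1, Pcna, Ccnd1 and Cdk4, and other pathway genes are named where called in RYGB versus sham. Other genes were named after their values were seen. RPKM used the exon lengths of the table. Residuals for correlations used log2(CPM + 0.5), and permutation p-values were two-sided. Groups came from the labels. Libraries were not paired by replicate number in the main fit. No libraries agreed within counting noise (the lowest chi-square per gene was 26.9). Alternatives were DESeq2 1.42.0, limma-voom (limma 3.58.1) with sample quality weights, other size factors, no filter, counts left unrounded, a fit without a batch term or without robust estimation, the 55 libraries of 6 groups, each batch alone, a replicate block, leaving out 6 libraries outlying on the first principal component and leaving out each library in turn. The test was checked on data simulated for BWM versus Lean, with genes drawn at random and no difference between batches. That check does not bear on batch or on outlying libraries. Intervals of low counts cover counting error only. The single-gene result of 1 blood marker is not reported here.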

Additional observations from a re-analysis of the deposited data

Results flagged for a closer look

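In groups of 4 to 10 libraries, 70 checks for a library far from the rest of its group (Dixon's criterion) gave 7, and chance gives about 1 in 20. Lean replicate 1 was the highest library of its group for Mki67, at 4.23 CPM against 1.99 in the next, and for Ube2c, an enzyme that works with the anaphase-promoting complex, at 0.773 against 0.237, and the lowest for Cdk4, at 24.3 against 32.5. PYY3-36 replicate 5, one of the 6 libraries outlying on the first principal component, was the highest of its group for Pcna, at 77.9 CPM against 12.5, and for the S phase sum, at 183.0 against 71.4, and the lowest for Cdk4, at 7.24 against 22.1. In the liraglutide group, replicate 1 was the highest for Mki67, at 4.71 CPM against 2.89.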

How the results depend on the processing

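Calls were few, and their number depended on the test. The numbers of members called in RYGB versus sham (0), BWM versus sham (0), RYGB versus BWM (0), RYGB versus Lean (2), BWM versus Lean (2) and any difference among the 8 groups (1) were 1, 1, 0, 3, 3 and 4 with DESeq2, and 6, 0, 1, 7, 6 and 10 with limma-voom with sample quality weights. Without the batch term they were 0, 2, 0, 0, 1 and 16. Without a filter on low counts RYGB versus Lean and BWM versus Lean each gave 1, and without the 6 outlying libraries RYGB versus sham gave 1. Leaving out 1 library gave 0 to 3 in RYGB versus sham (3 without RYGB replicate 9, 2 without RYGB replicate 4), 0 to 7 in RYGB versus Lean and 1 to 3 in BWM versus Lean. The shares of all genes called under these settings are not given here, so these counts of members cannot be set against them. The main fit did not pair libraries by replicate number. Of same-numbered pairs, 3 of 12 had a correlation over 0.1 in RYGB versus sham, 0 of 6 in RYGB versus Lean and 0 of 8 in sham versus saline. There were 4 of 6 in Lean versus sham (highest 0.379) and 4 of 8 in liraglutide+PYY3-36 versus saline (highest 0.472). With the replicate block, the numbers of members called were 2 in RYGB versus sham, 1 in BWM versus Lean and 2 among the 8 groups, and the S phase median in RYGB versus Lean was -0.74. The S phase median in RYGB versus sham was -0.10 without the 6 libraries (-0.40 to -0.12 on leaving out 1 library), and the mitotic median was -0.65 without the batch term and -1.14 in batch B alone (-0.59 to -0.21). In liraglutide+PYY3-36 versus saline the S phase median was -0.21 in batch A and 0.42 in batch B, and the mitotic median ran from -0.58 to -0.13 on leaving out 1 library. In BWM versus Lean the mitotic median was -1.01 with limma-voom (-1.55 to -1.07 on leaving out 1 library). Of the single genes followed in RYGB versus sham, RYGB versus Lean and BWM versus Lean, those whose sign turned were uncalled genes of RYGB versus sham, and several class medians in other comparisons also changed sign. Prc1 was 0.032 in batch A, and Ube2c 0.0314 with the replicate block. Top2a was 0.0669 with limma-voom, 0.05 in batch A, 0.015 without the 6 libraries, 0.142 with the replicate block and 0.0224 without sham replicate 12 (-0.59 to 0.0224 on leaving out 1 library). Pcna was 0.0517 without the 6 libraries and 0.0689 without sham replicate 12 (-0.48 to 0.0689), and Cdk4 was 0.148 without the batch term and 0.0115 with the replicate block. The cause was not tested in any of these. Low read numbers limit single mitotic genes.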
